A study of Homo sapiens with 12 samples.

Results

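AP-1 is a dimeric transcription factor built from a Jun protein (JUN, JUNB or JUND) and either a second Jun protein or a partner of the Fos group (FOS, FOSB, FOSL1, FOSL2). Many of these genes are immediate early genes, which are transcribed within minutes of a growth factor or stress signal without new protein synthesis, and their mRNAs are mostly short-lived. EGR1, a zinc finger factor, and IER2 and IER3 belong to the same early response. In liver cells AP-1 is known for its part in proliferation and regeneration, and in neural cells for the response to growth factors and depolarisation.

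These 10 genes, of 58174 listed in each table, were followed in cells depleted of IGF2BP1, an oncofetal protein that binds mRNAs. The group was chosen by the values of JUN, which moved in opposite directions in the 2 cell lines, and the other 9 genes were added by name. The JUN values are therefore a description without a test, while the other 9 genes were tested. These 9 were also named with earlier results of these data known.

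PolyA RNA was sequenced from Hep-G2, a line from a liver tumour, and BE(2)-C, a neuroblastoma line. Cells received a control siRNA (siC) or an siRNA pool against IGF2BP1 (siI1) and were harvested after 72 h, with 3 libraries per siRNA and line and 12 in all. A higher siRNA concentration was used in BE(2)-C, so dose and cell line cannot be told apart. Each line is a single established culture, and p-values measure the spread between its libraries. The reads on genes ranged from 12852988 to 15721210 per library. Levels are FPKM, the fragments per kilobase of gene relative to library size, which the authors scaled within each line, so levels of the lines are set side by side without a test.

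The labels were checked against marker genes. In Hep-G2 the 8 hepatocyte markers summed to 7595 FPKM in siC and 13167 FPKM in siI1 libraries, led by ALB. Of these 8, all tested, 5 rose, AFP and TTR fell with log2 changes of -0.59 and -0.77 (limma, adjusted p = 0.0029 for each), and APOB did not pass the test, where 21.9% of all tested genes rose and 23% fell. The same markers in BE(2)-C summed to at most 0.237 FPKM, and AFP, FGB and HNF4A were listed at 0 in every library. The 8 sympathoadrenal markers summed to 3653 FPKM in BE(2)-C siC and 3939 FPKM in siI1 libraries, with at most 0.269 FPKM in any Hep-G2 library, and 4 of the 8 fell and 2 rose in BE(2)-C, where 14.8% of all tested genes fell and 13.3% rose. Of 10 markers of substrate-adherent neuroblastoma cells, 5 were below 0.1 FPKM in every BE(2)-C library, among them PRRX1 and YAP1. Their sum in BE(2)-C was 326 FPKM in siC and 205.0 FPKM in siI1 libraries, led by LGALS1, which fell with a log2 change of -0.84. The other 4 tested there had lower levels, and of these FN1 and SNAI2 rose with log2 changes of 2.08 and 0.40, so that the median of the 5 was 0.31. The part of these cells in the results was not tested, and in bulk RNA fewer cells of a type and less RNA per cell cannot be told apart.

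The targeted gene was lower in each siI1 library. In Hep-G2, IGF2BP1 stood at 48.5, 46.6 and 50.8 FPKM in siC and at 12.6, 10.7 and 10.7 FPKM in siI1 libraries. The BE(2)-C level was 21.3, 20.6 and 21.6 FPKM in siC and 4.85, 4.75 and 4.87 FPKM in siI1 libraries. On the log2(FPKM + 0.1) scale IGF2BP1 fell in both lines, with a change of -2.10 ± 0.08 (SE) in Hep-G2 (limma, adjusted p = 7.8e-06) and -2.11 ± 0.05 (SE) in BE(2)-C (limma, adjusted p = 1.5e-05). The difference between the lines was 0.02, with a 95% interval from -0.19 to 0.22. One Hep-G2 library, siI1 replicate 1, lay apart from the other two of its group. Its reads differed from theirs by a chi-square per degree of freedom of 13.8 and 14.3, against 1.98 between the other two, so the changes of the genes in Hep-G2 are also given without it.

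Among the 9 genes other than JUN, all tested in Hep-G2, 6 fell and 1 rose with siI1, beside 23% and 21.9% of all 19436 genes tested. The BE(2)-C fit could test 8 of the 9, of which 4 fell and 0 rose, beside 14.8% and 13.3% of 18656 genes. At an unadjusted limma p below 0.05 the count of risen genes in BE(2)-C was also 0, as it was by voom on the recovered reads. Of the 8 tested in both lines, 5 had a change that differed between the lines, where this held for 40.2% of 15362 genes. Without Hep-G2 siI1 replicate 1 the Hep-G2 counts were again 6 and 1. The log2 changes were then -0.66 for JUNB, 1.55 for JUND, -2.21 for FOSL1, -0.60 for FOSL2, -3.73 for EGR1, -0.49 for IER2, -1.85 for IER3, 0.95 for JUN and -2.18 for IGF2BP1. Those of FOS and FOSB were -0.28 and -0.04 and did not pass the test (limma, adjusted p = 0.74 and 0.95).

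**Figure D1:**
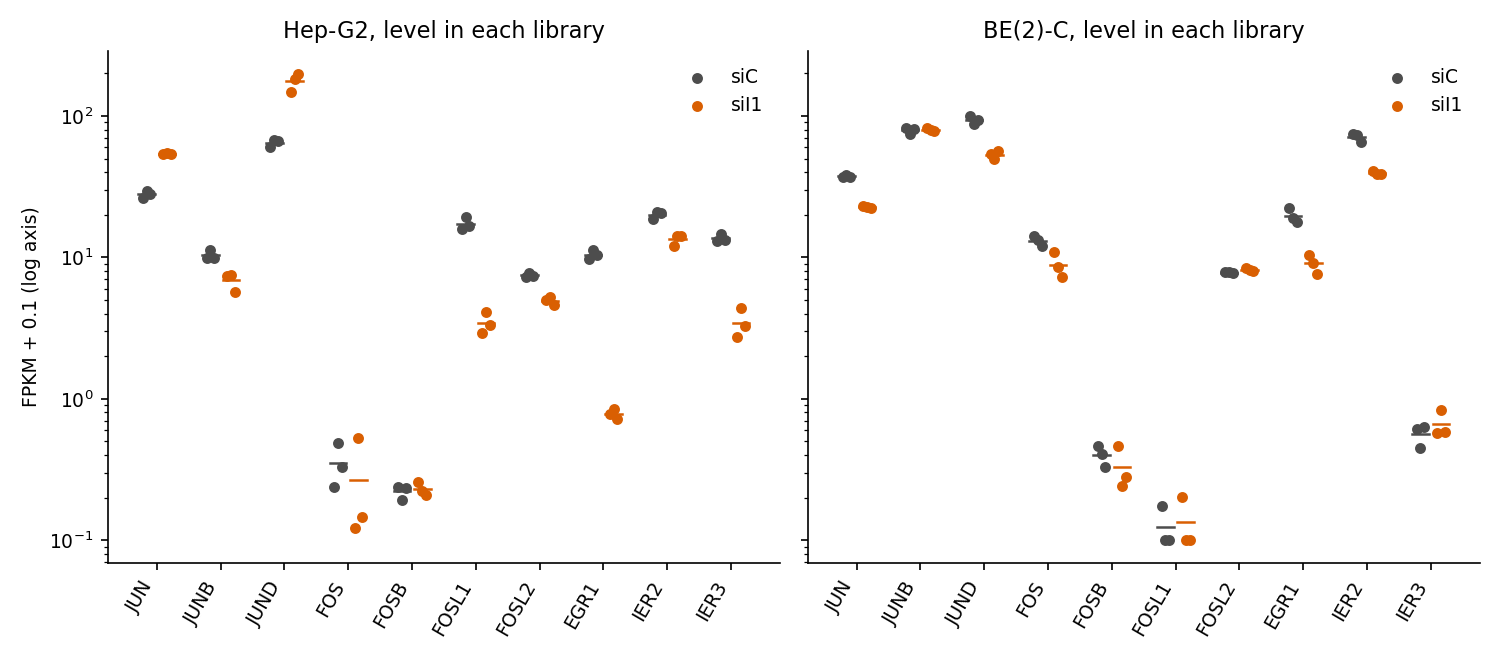
Level of each gene in each library as FPKM + 0.1 on a log axis, for Hep-G2 (left) and BE(2)-C (right), with points for libraries and lines for group means. JUN and JUND lie higher in siI1 than in siC libraries of Hep-G2 and lower in those of BE(2)-C.

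JUN encodes the founding Jun protein and lies on the minus strand at chr1:58776845-58784048 (GRCh38), with a single exon in its MANE transcript. In Hep-G2 its level was 26.1, 29.4 and 28.1 FPKM in siC and 54.1, 54.5 and 53.7 FPKM in siI1 libraries. The BE(2)-C level was 36.8, 38.1 and 37.2 FPKM in siC and 23.1, 22.7 and 22.2 FPKM in siI1 libraries. The groups did not overlap in either line, which is a description only, as JUN was chosen by its change in these same libraries. On the log2(FPKM + 0.1) scale JUN differed by 0.95 ± 0.06 (SE) between siI1 and siC of Hep-G2 and by -0.72 ± 0.04 (SE) between those of BE(2)-C. JUN had 1420 to 2811 reads in Hep-G2 libraries and 1089 to 1872 in BE(2)-C libraries.

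JUND, a Jun protein that many resting cells hold at a steady level, lies at chr19:18279694-18281622. Its level in Hep-G2 was 60.1, 67.9 and 66.1 FPKM in siC and 147, 182 and 198 FPKM in siI1 libraries. The BE(2)-C level was 100.6, 87.0 and 94.2 FPKM in siC and 53.9, 49.2 and 56.4 FPKM in siI1 libraries. JUND thus rose in Hep-G2 and fell in BE(2)-C, with no overlap of the groups in either line. The log2 change of JUND was 1.43 ± 0.11 (SE) in Hep-G2 (limma, adjusted p = 0.00011) and -0.82 ± 0.07 (SE) in BE(2)-C (limma, adjusted p = 0.00049). The difference between the lines was 2.25 (limma, adjusted p = 1e-06), with a 95% interval from 1.94 to 2.57. Hep-G2 siI1 replicate 1 held the lowest of its siI1 values.

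JUNB, a Jun protein that can restrain JUN activity, lies at chr19:12791486-12793315. In Hep-G2 its level fell from 9.73, 11.2 and 9.80 FPKM in siC to 7.31, 7.36 and 5.63 FPKM in siI1 libraries, a log2 change of -0.60 ± 0.12 (SE; limma, adjusted p = 0.0066). BE(2)-C held it at 82.6, 74.9 and 81.0 FPKM in siC and at 82.5, 79.3 and 78.3 FPKM in siI1 libraries, with overlapping groups and a log2 change of 0.01 ± 0.05 (SE). The difference between the lines was -0.61 (limma, adjusted p = 0.0041). JUNB overlaps HOOK2 on the opposite strand, which stood at 2.75 to 6.51 FPKM in Hep-G2, and although the libraries were strand-specific, the strand setting of the read counting is not stated, so their reads cannot be told apart here.

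The makeup of the Jun family shifted with these changes. In Hep-G2, JUND made up 62.9% ± 0.55 (SD, n = 3) of the summed FPKM of JUN, JUNB and JUND in siC and 74.1% ± 3.21 in siI1 libraries, and JUNB 9.95% ± 0.47 and 2.90% ± 0.66. The share of JUN was 27.1% ± 0.10 in siC and 23.0% ± 2.59 in siI1 libraries of Hep-G2. JUNB took the place of JUND as the largest part in BE(2)-C, with 37.7% ± 0.37 in siC and 51.4% ± 1.30 in siI1 libraries, while JUND went from 44.5% ± 1.12 to 34.1% ± 1.72. The shares of JUN there were 17.8% ± 1.17 and 14.5% ± 0.44. The 3 genes summed to 103 FPKM in siC and 237 FPKM in siI1 libraries of Hep-G2, and 211 and 156 FPKM in BE(2)-C. No test was made on these shares.

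**Figure D2:**
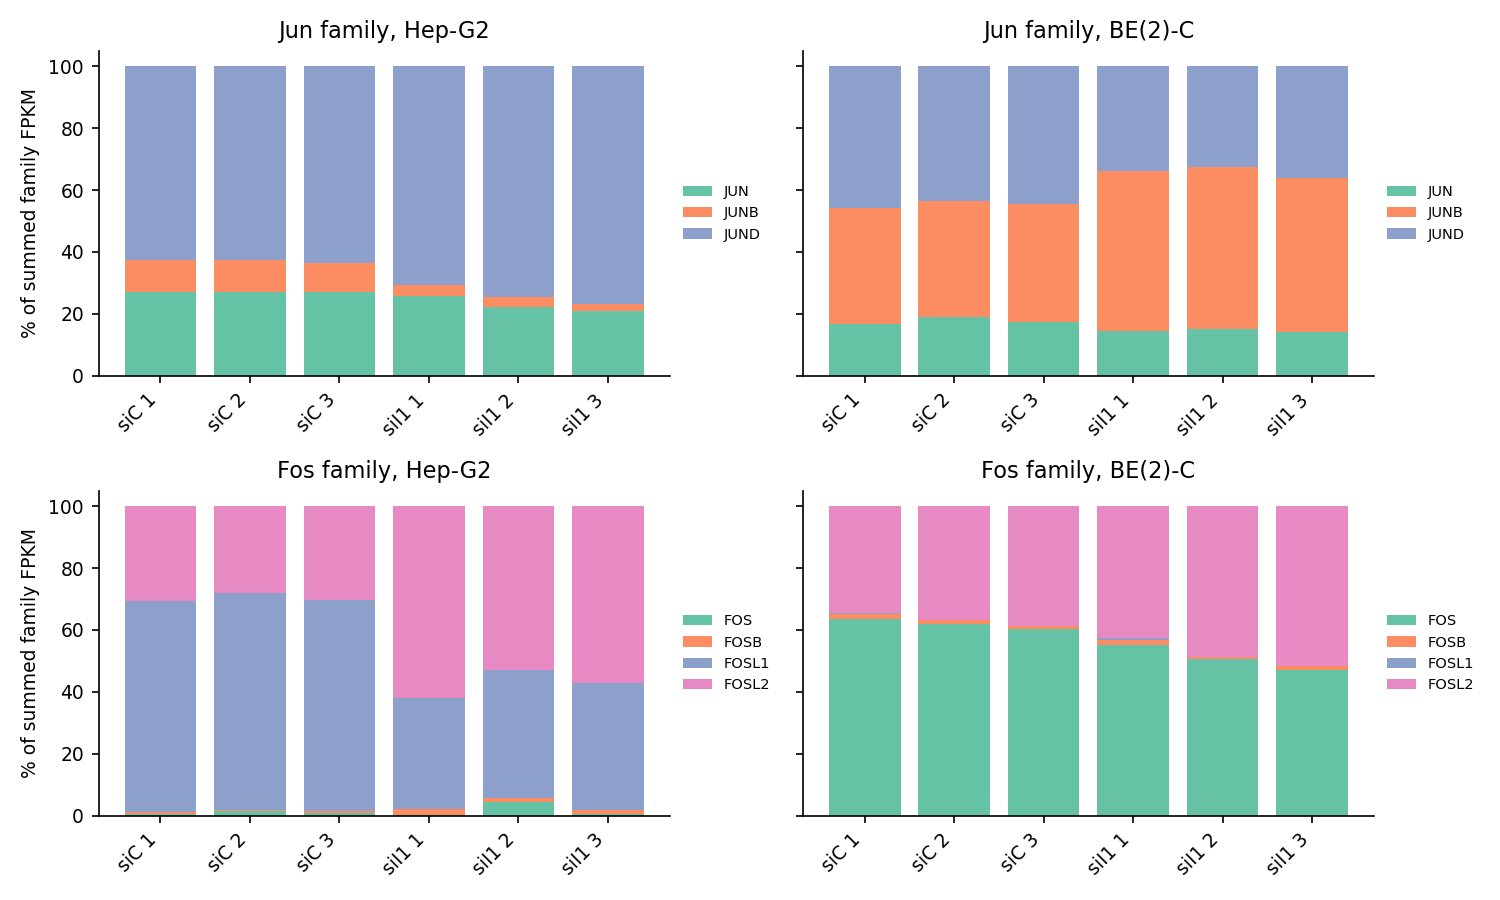
Share of each gene in the summed FPKM of its family, in percent, with 1 bar per library, for the Jun family (top) and the Fos family (bottom) in Hep-G2 (left) and BE(2)-C (right). JUND is the largest part in each Hep-G2 library, and JUNB is the largest part in the 3 siI1 libraries of BE(2)-C.

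The level of FOS was higher in BE(2)-C and that of FOSL1 in Hep-G2, while the mean of FOSL2 in siC libraries was 7.36 FPKM in Hep-G2 and 7.71 FPKM in BE(2)-C. FOS, the partner of JUN in classical AP-1, lies at chr14:75278826-75282230 with 4 exons. Its level in BE(2)-C was 14.2, 13.1 and 11.9 FPKM in siC and 10.7, 8.39 and 7.18 FPKM in siI1 libraries, each siI1 value below each siC value. The log2 change was -0.58 ± 0.14 (SE; limma, adjusted p = 0.023). It missed the threshold on leaving out siC replicate 1 or 2, or siI1 replicate 2 or 3, of BE(2)-C (limma, adjusted p = 0.068, 0.057, 0.07 and 0.052), and ranged from 2.2e-05 to 0.07 over all alternatives. In Hep-G2, FOS had 1 to 20 reads per library and no change was detectable at this depth. The siC libraries there stood at 0.139, 0.385 and 0.230 FPKM and the siI1 libraries at 0.023, 0.424 and 0.046 FPKM. Replicate 2 was thus the highest of each group, and the log2 change was -0.68 ± 0.61 (SE).

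FOSL1, a Fos protein common in epithelial and tumour cells, lies at chr11:65892049-65900573. In Hep-G2 it stood at 15.7, 19.1 and 16.6 FPKM in siC and at 2.82, 4.0 and 3.25 FPKM in siI1 libraries. This was the larger of the 2 falls among Fos genes of that line, with a log2 change of -2.33 ± 0.14 (SE; limma, adjusted p = 3.3e-05). FOSL1 in BE(2)-C had at most 3 reads in a library, was listed at 0 in 4 of 6 libraries and was not tested. FOSL2, its close relative at chr2:28392448-28417317, fell in Hep-G2 from 7.11, 7.64 and 7.34 to 4.89, 5.11 and 4.53 FPKM, a log2 change of -0.60 ± 0.07 (SE; limma, adjusted p = 0.00079). The BE(2)-C level of FOSL2 was 7.63 to 7.77 FPKM in siC and 7.86 to 8.32 FPKM in siI1 libraries, without overlap, and the log2 change of 0.07 ± 0.05 (SE) did not pass the test. The difference between the lines was -0.66 (limma, adjusted p = 0.00011).

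FOSB was near the lower limit in both lines, with 7 to 12 reads in Hep-G2 and 11 to 31 reads in BE(2)-C libraries, and a change was not detectable at this depth. Its gene overlaps ERCC1 on the opposite strand, which stood at 7.19 to 9.16 FPKM in Hep-G2 and 13.7 to 16.6 FPKM in BE(2)-C. ERCC1 had up to 753 reads in a Hep-G2 library and 1328 in a BE(2)-C library. As the strand setting of the read counting is not stated, the reads of FOSB and ERCC1 cannot be told apart here. Of the summed FPKM of the 4 Fos genes, FOSL1 made up 68.8% ± 1.137 (SD, n = 3) in siC and 39.4% ± 3.15 in siI1 libraries of Hep-G2. There FOSL2 took the first place in siI1 libraries with 57.3% ± 4.51. FOS held in BE(2)-C a share of 61.8% ± 1.57 in siC and of 50.9% ± 3.92 in siI1 libraries.

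EGR1, whose product binds GC-rich promoters after mitogen signals, lies at chr5:138465479-138469303. Its level in Hep-G2 was 9.59, 11.1 and 10.2 FPKM in siC and 0.683, 0.744 and 0.620 FPKM in siI1 libraries. The siC mean was 15.1 times the siI1 mean, and the log2 change of -3.73 ± 0.11 (SE; limma, adjusted p = 3.3e-06) was the largest in the group, with 26 reads in the lowest library. It fell in BE(2)-C from 22.2, 18.9 and 17.7 FPKM to 10.3, 9.09 and 7.50 FPKM, a log2 change of -1.12 ± 0.13 (SE; limma, adjusted p = 0.0014). EGR1 fell in both lines, and the change differed by -2.61 between them (limma, adjusted p = 1.2e-06).

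IER2, a nuclear protein of the early response, lies at chr19:13150411-13154911. It fell in Hep-G2 from 18.4, 20.9 and 20.4 to 11.99, 14.1 and 14.1 FPKM, a log2 change of -0.57 ± 0.09 (SE; limma, adjusted p = 0.0019). The fall in BE(2)-C was from 74.4, 73.8 and 64.9 to 41.0, 38.8 and 38.7 FPKM, a log2 change of -0.84 ± 0.06 (SE; limma, adjusted p = 0.00029). The difference of 0.27 between the lines, with a 95% interval from 0.03 to 0.52, missed the threshold after adjustment (limma, adjusted p = 0.069). It passed without Hep-G2 siI1 replicate 1 (limma, adjusted p = 0.01) or BE(2)-C siC replicate 3 (limma, adjusted p = 0.031), and with the replicate block (limma, adjusted p = 0.016), within a range of 0.01 to 0.4 over all alternatives. A lncRNA on the opposite strand of IER2 reached 9.42 FPKM in BE(2)-C, and as for JUNB the reads of the overlapping genes cannot be told apart here.

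IER3, an early gene known for its effect on cell survival, lies at chr6:30743199-30744548. In Hep-G2 its level was 12.9, 14.4 and 13.2 FPKM in siC and 2.62, 4.30 and 3.14 FPKM in siI1 libraries, a log2 change of -2.0 ± 0.17 (SE; limma, adjusted p = 0.00014). BE(2)-C libraries held 6 to 14 reads of IER3, with 0.345 to 0.527 FPKM in siC and 0.477 to 0.730 FPKM in siI1 libraries. These BE(2)-C groups overlapped, and the change differed by -2.24 between the lines (limma, adjusted p = 0.00013).

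**Figure D3:**
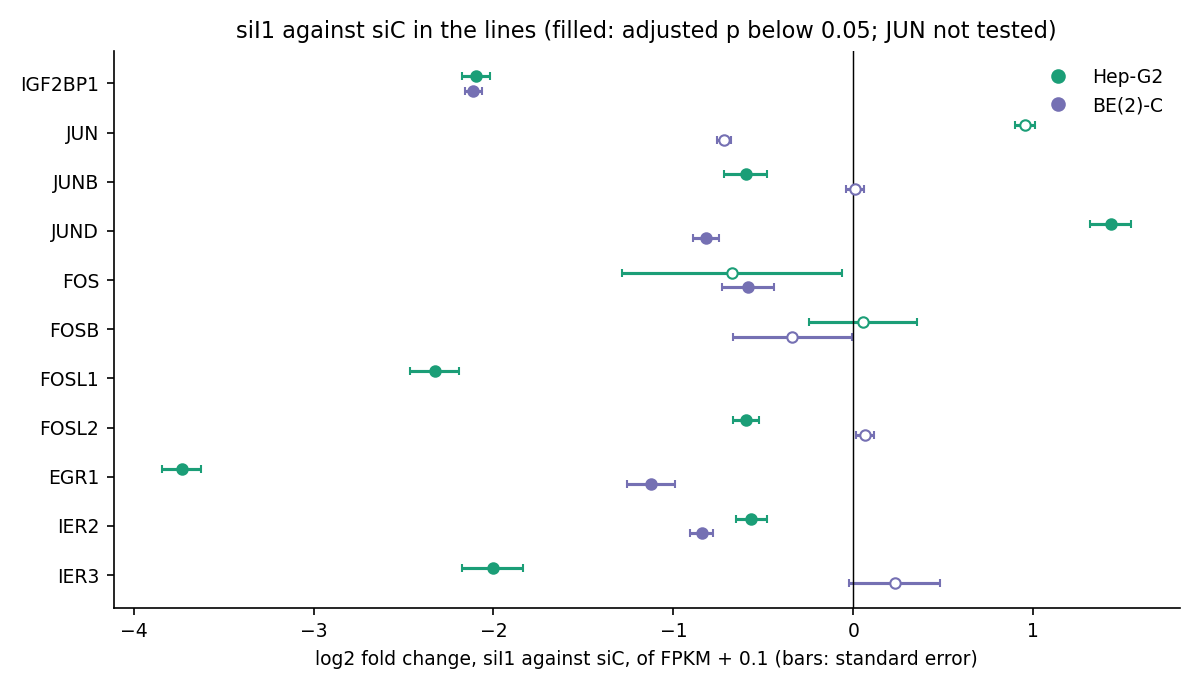
Log2 fold change of FPKM + 0.1, siI1 against siC, for IGF2BP1 and the 10 genes in each line, except FOSL1 in BE(2)-C, which was not tested, with bars for the standard error. Filled points passed an adjusted p of 0.05 and JUN is drawn open because it was not tested, and JUND at 1.43 and -0.82 lies on opposite sides of 0.

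The order of the levels within a line also changed. In Hep-G2 siC libraries the order was JUND, JUN, IER2, FOSL1, IER3, EGR1, JUNB, FOSL2, FOS and FOSB, and the ranges of IER2 and FOSL1 and of EGR1 and JUNB overlapped. In siI1 libraries JUND and JUN again led, followed by IER2, JUNB, FOSL2, FOSL1, IER3, EGR1, FOS and FOSB, and the ranges of FOSL1 and IER3 and of FOS and FOSB overlapped. Among BE(2)-C siC libraries the order was JUND, JUNB, IER2, JUN, EGR1, FOS, FOSL2, IER3, FOSB and FOSL1, with an overlap of IER3 and FOSB. In siI1 libraries JUNB came first and JUND next, and the ranges of EGR1, FOS and FOSL2 all overlapped with each other.

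Over the 12 libraries, after each line was centred on its mean, the 5 protein-coding genes most like JUN among 4802 were EI24, PEA15, SDC2, HDAC5 and ALDH7A1. Their Pearson correlations with JUN were 0.993, 0.987, 0.986, 0.984 and 0.984. JUND ranked 22 with a correlation of 0.97, while that of FOSL2 was -0.83, that of JUNB -0.71, that of EGR1 -0.58 and that of IER2 0.06. These values rest on the same 4 groups that chose JUN and carry no test. With median centring 2 of the 5 stayed among the 5, and with equal sums of FPKM 3 did.

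Short stretches of the reference show elements that these genes are known for. RefSeq promoters (GRCh38.p14), short windows around the start, matched 8 of the 10 genes, not FOSL1 and IER3. The letters TGACATCA, a variant AP-1 element known from the JUN promoter, occurred on either strand in 2.61% of 35116 promoters and among the 8 in JUN alone. The letters TGACGTCA, the cAMP element, occurred in 1.85% and among the 8 in JUND alone. The CArG box, which serum response factor binds, occurred within these windows in 1.29% and among the 8 in EGR1 alone, in 2 places. The capitals mark the element, on the strand of the gene, at chr1:58784097-58784124, chr19:18281805-18281832, chr5:138465365-138465392 and chr5:138465387-138465414.
JUN: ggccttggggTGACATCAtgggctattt
JUND: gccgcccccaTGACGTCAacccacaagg
EGR1, upstream CArG box: ccggtcctgCCATATTAGGgcttcctgc
EGR1, downstream CArG box: tcctgcttcCCATATATGGccatgtacg
The AP-1 element TGACTCA occurred in 4.95% of promoters and in FOSL2 among the 8, GCGGGGGCG in 5.07% and in none of the 8, and GGGCGG in 45% and in 6 of the 8. GGGCGG and GCGGGGGCG can overlap. These matches describe letters and not binding. Elements farther from the start than these windows reach were not searched, nor were variants of the letters. A gene without a match here may therefore still hold such an element.

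Many early mRNAs carry AU-rich elements in the 3′ UTR, which proteins such as ZFP36L1 and KHSRP bind to speed decay. In MANE transcripts (GENCODE) the letters ATTTA occurred at a median of 1.55 per kb of 3′ UTR over 18780 genes, and 5 of the 10 genes lay above this. IER3 held 6 in 737 nt, or 8.14 per kb, and FOS held 5 in 806 nt, or 6.20 per kb. IER2 held 0 in 1053 nt and EGR1 1 in 1222 nt. The longer element TTATTTATT, which contains ATTTA, occurred in 8.60% of 3′ UTRs and in FOS and FOSL2 among the 10, at chr14:75282061-75282088 and chr2:28416356-28416383, in capitals.
FOS: gtttttaatTTATTTATTaagatggatt
FOSL2: tttattttaTTATTTATTttaaatgttt
The 6 genes of the group that fell in Hep-G2 ranged from 0 ATTTA per kb in IER2 to 8.14 per kb in IER3. JUND, which rose there, held 1.34 per kb. The part of these elements in the changes was not tested.

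The genes around AP-1 were described by 5 lists. Of 12 bZIP partners, proteins that pair with Jun or Fos or bind related sites, 11 were tested in Hep-G2, of which 5 fell and 3 rose, beside 23% and 21.9% of all tested genes. In the other line 10 were tested, of which 5 fell and 1 rose, beside 14.8% and 13.3%. Under equal sums of FPKM, a scaling described below, 8 fell in Hep-G2. In BE(2)-C 3 fell among genes with a mean of at least 50 reads, a limit chosen after seeing the data. The median log2 changes of the tested partners in Hep-G2 and BE(2)-C were -0.16 and -0.38, where the medians of all tested genes were 0.01 and 0.02. ATF3, a stress factor that pairs with JUN, rose from 1.63 to 1.85 FPKM in siC to 2.83 to 3.06 FPKM in siI1 libraries of Hep-G2. ATF3 fell in BE(2)-C from 4.90 to 5.07 FPKM to 2.25 to 2.64 FPKM, and the log2 changes were 0.75 (limma, adjusted p = 0.0013) and -0.99 (limma, adjusted p = 0.00046). The small Maf gene MAFG fell in both lines, with log2 changes of -1.12 and -0.41, and MAFF fell in Hep-G2 with -2.29. MAF, a large Maf factor, rose in Hep-G2 from 1.69 to 1.81 FPKM in siC to 3.24 to 3.68 FPKM in siI1 libraries, a log2 change of 0.97 (limma, adjusted p = 0.00037). It had at most 1 read in a BE(2)-C library and was not tested there. BATF3 fell in BE(2)-C with -1.23, at 27 reads in the lowest library, and was not tested in Hep-G2.

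Among 27 other early genes, 22 were tested in Hep-G2, where 9 fell and 5 rose, beside 23% and 21.9% of all tested genes. The falls include EGR3, named after its values were seen, which was at 0 in the siI1 libraries, had at most 18 reads and reached the minimum level through siC libraries alone, so that its fall was selected for. Without EGR3, left out after seeing the data, 8 of 21 fell and the median was -0.27. Of 23 tested in BE(2)-C, 4 fell and 7 rose, beside 14.8% and 13.3%, and 2 fell on leaving out siC replicate 3 or siI1 replicate 3. The median log2 changes in the same order of lines were -0.28 and -0.06. BTG2, an antiproliferative early gene, rose in both lines, from 12.8 to 14.4 FPKM in siC to 64.7 to 66.7 FPKM in siI1 libraries of Hep-G2 and with a log2 change of 0.90 in BE(2)-C. MCL1, which protects cells from apoptosis, fell in Hep-G2 with -1.23 (limma, adjusted p = 1.6e-05), and its change in BE(2)-C was -0.03. GADD45B, a stress sensor, rose in Hep-G2 with 1.42. KLF10 and the kinase gene SGK1 rose in BE(2)-C with 0.69 and 0.81, while the Hep-G2 changes of 0.15 and -0.27 did not pass the test. KLF10 passed it there without siC replicate 3, and SGK1 without siC replicate 2 or siI1 replicate 1 (limma, adjusted p = 0.042, 0.038 and 0.041). SGK1 passed it in 6 of 17 alternatives, voom among them (adjusted p = 0.02).

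Of 17 upstream genes, which encode the JNK cascade and the factors that act on early promoters, 15 were tested in Hep-G2, of which 8 fell and 5 rose, beside 23% and 21.9% of all tested genes. Under equal sums of FPKM 2 rose in Hep-G2, in place of 5. All 17 were tested in BE(2)-C, of which 2 fell and 2 rose, near the 14.8% and 13.3% of all tested genes, and the medians were -0.36 and 0.06. Leaving out any 1 library of BE(2)-C left 0 or 1 that rose. SRF, the factor that binds the CArG box, fell in both lines, from 20.7, 22.2 and 22.8 to 8.22, 8.04 and 9.19 FPKM in Hep-G2 and from 20.02, 19.3 and 18.6 to 11.9, 13.05 and 11.1 FPKM in BE(2)-C. The log2 changes were -1.36 (limma, adjusted p = 2.4e-05) and -0.68 (limma, adjusted p = 0.00076). ELK3, an SRF partner, fell in Hep-G2 with -2.12, and MAP2K4, a kinase that activates JNK, with -0.71. MAPK8IP1, a JNK scaffold, rose in Hep-G2 with 1.08 and fell in BE(2)-C with -0.28. MAP3K1 rose in BE(2)-C with 0.29 (limma, adjusted p = 0.03), which missed the threshold without siC replicate 1, siI1 replicate 2 or siI1 replicate 3 (limma, adjusted p = 0.059, 0.088 and 0.099).

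Of 9 genes for turnover of early mRNAs and proteins, 3 fell and 2 rose in Hep-G2, beside 23% and 21.9% of all tested genes, and 1 rose without siC replicate 1 or siI1 replicate 2. Under equal sums of FPKM 6 fell in Hep-G2, in place of 3. Of the same 9, 1 fell and 2 rose in BE(2)-C, beside 14.8% and 13.3%, while 2 fell without siC replicate 3 and 1 rose without siI1 replicate 1 or 3. The medians were -0.13 and 0.11. ZFP36L1 fell in Hep-G2 from 37.0 to 39.3 FPKM in siC to 17.4 to 19.5 FPKM in siI1 libraries, while ZFP36L2 rose there with a log2 change of 0.41. KHSRP fell in both lines, with -0.32 and -0.33. FBXW7, which marks JUN protein for degradation, rose in BE(2)-C with 0.68, and its Hep-G2 change of -0.30 passed the test in 4 of 17 alternatives, among them leaving out siI1 replicate 1 (limma, adjusted p = 0.039) and voom (adjusted p = 0.027). ITCH, a ubiquitin ligase that acts on Jun proteins, fell in Hep-G2 with -0.65 (limma, adjusted p = 0.0036). Its level in BE(2)-C was 6.84 to 7.90 FPKM in siC and 8.93 to 9.04 FPKM in siI1 libraries, without overlap, and the log2 change was 0.27 (limma, adjusted p = 0.023). That change missed the threshold without siI1 replicate 1, 2 or 3 (limma, adjusted p = 0.064, 0.07 and 0.076).

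Of 17 genes known as AP-1 targets, 11 were tested in Hep-G2, where 7 fell and 3 rose, beside 23% and 21.9% of all tested genes, with a median of -1.17. Under equal sums of FPKM 1 rose in Hep-G2, in place of 3. The 7 and the median include MMP1, named after its values were seen, which was at 0 in the siI1 libraries, had at most 6 reads and reached the minimum level through siC libraries alone, so that its fall was selected for. Without MMP1, left out after seeing the data, 6 of 10 fell and the median was -1.13. The 9 tested in BE(2)-C had a median of -0.03. Of these 9, 1 was lower, near the 14.8% of all tested genes, and 0 were higher, beside 13.3%. In that line 7 of the 17 were below 0.1 FPKM in every library. The protease gene PLAU fell in Hep-G2 from 6.81 to 7.83 FPKM in siC to 1.01 to 1.48 FPKM in siI1 libraries. SPP1, a secreted matrix protein, fell from 805 to 856 FPKM to 369 to 402 FPKM, and TIMP1, an inhibitor of matrix proteases, with a log2 change of -1.68. HMOX1, a heme-degrading enzyme, rose in Hep-G2 with 0.50. HMOX1 was lower in BE(2)-C with -1.04 (limma, adjusted p = 0.021) at 15 reads in the lowest library, and missed the threshold without siC replicate 1, siC replicate 3, siI1 replicate 2 or siI1 replicate 3 (limma, adjusted p = 0.065, 0.062, 0.065 and 0.064).

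**Figure D4:**
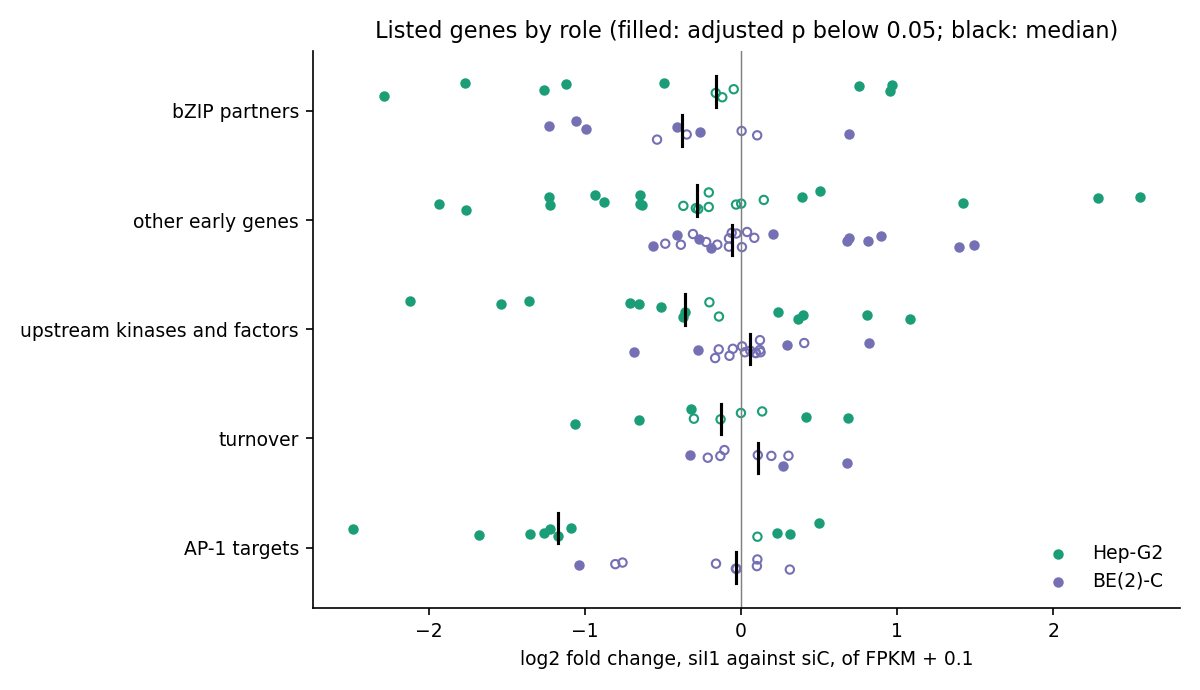
Log2 fold change of FPKM + 0.1, siI1 against siC, of each tested gene of the 5 lists by line, with filled points past an adjusted p of 0.05 and a black line at each median. The medians of the AP-1 targets lie at -1.17 in Hep-G2, or -1.13 without MMP1, and at -0.03 in BE(2)-C.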

How the data were processed

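The authors clipped reads with cutadapt 1.14, aligned them to hg38 with HISAT2 2.1.0, counted them per Ensembl gene with featureCounts 1.5.3 and used edgeR 3.30.3 with TMM. The authors deposited FPKM values for each library in 1 table per line, with gene length in nt and columns of their own log2 fold change, p-value and FDR, which were not used here. The unit was read from the values: FPKM times length, scaled by a library size inferred for each library from the values themselves, gave whole reads for 100% of values (tolerance 0.05).

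Each line was filtered to genes that reached 0.1 FPKM in 3 or more libraries, which were tested on log2(FPKM + 0.1), a scale that understates changes of low genes, with limma 3.58.1 in R 4.3.3 (mean-variance trend, two-sided, Benjamini-Hochberg over all tested genes, threshold 0.05). The difference between the lines came from 1 fit of 4 group means over 12 libraries. Figures were drawn with matplotlib 3.10.9. Coordinates are from GENCODE on GRCh38, which is not the annotation the authors used. Counting intervals are not given, as reads without molecular identifiers are not independent molecules.

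The fits were tested on simulated data. The limma fits on FPKM fell short of the share of recovered changes first set as the requirement (0.9), and a larger part of their calls within a line than the threshold allows was false, while voom on the recovered reads met the requirement with a smaller false part, still slightly above the threshold in BE(2)-C. Misses and false calls lay almost wholly in genes with few reads. The fit was kept as designed. The requirement was then changed to genes with more reads, after that outcome and after the real results had been seen, and a fit of genes with a mean of at least 50 reads was added. Of the calls in the data, 19.1% in Hep-G2 and 15.3% in BE(2)-C lay under that mean, so calls of such genes are less sure than their adjusted p.

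The members and lists were chosen with earlier results of these data known. A gene of the bZIP list and another of the turnover list are not reported here and were left out of the list counts, medians and plots, and the rule for named genes was applied without them. Named genes were the 10 members, IGF2BP1, the 5 genes most like JUN (mean of at least 5 FPKM in each line) and, from each list and line, the 3 genes with the smallest p past the threshold. Alternatives were the pseudocount, the filter, the trend, the scaling, voom on the recovered reads within each line, the replicate block, each replicate left out, a stricter threshold and, between the lines, the difference of the per-line values with a normal p.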

Additional observations from a re-analysis of the deposited data

Results flagged for a closer look

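The change upon siI1 differed between the lines for 5 of the 8 members tested in both, by the limma test of the difference itself, beside 40.2% of all 15362 genes tested in both. The differences below are Hep-G2 minus BE(2)-C on the log2(FPKM + 0.1) scale. They were 2.25 for JUND, which rose in Hep-G2 and fell in BE(2)-C, and -2.61 for EGR1, which fell in both. They were -2.24 for IER3, -0.66 for FOSL2 and -0.61 for JUNB, which fell in Hep-G2.

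The list genes were named for the smallest p within a line, so a difference between the lines was partly selected for. It did not pass the test for KHSRP (0.01, limma, adjusted p = 0.91) and MAP3K1 (-0.43, limma, adjusted p = 0.074) and passed for the others given here. The difference of MAP3K1 passed in 6 of 23 alternatives. Among them were leaving out Hep-G2 siI1 replicate 1 (limma, adjusted p = 0.0074) and the replicate block (limma, adjusted p = 0.034). Among the named bZIP partners the differences were 1.75 for ATF3, -0.71 for MAFG and -1.94 for MAFF. For other early genes they were 1.39 for BTG2, -1.20 for MCL1, 1.65 for GADD45B, -0.55 for KLF10 and -1.09 for SGK1. For upstream genes they were -0.68 for SRF, -2.18 for ELK3, -0.66 for MAP2K4 and 1.36 for MAPK8IP1. For turnover genes they were -0.93 for ZFP36L1, 0.31 for ZFP36L2, -0.98 for FBXW7 and -0.92 for ITCH, and for AP-1 targets -1.52 for TIMP1 and 1.54 for HMOX1. The adjusted p of these genes ranged from 1.6e-06 to 0.0063. The BE(2)-C values of IER3, ZFP36L1 and HMOX1 rest on few reads, with 6, 4 and 15 in the lowest library. The difference of ZFP36L1 missed the threshold with a pseudocount of 0.01 (limma, adjusted p = 0.098), and that of ZFP36L2 with equal sums of FPKM (limma, adjusted p = 0.34). The siRNA concentration also differed between the lines, and its part was not tested.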

How the results depend on the processing

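Over 516 alternatives of the 28 changes and differences of members, 498 left the result on the same side, 6 weakened and 7 strengthened it past the threshold, 5 moved the untested values of JUN by more than the spread of libraries, and 0 reversed a call. FOS in BE(2)-C accounted for the 6 and IER2 between the lines for the 7, among them the difference of the per-line values with a normal p (adjusted p = 0.023), which called 7206 genes. The cause was not tested. An adjusted p below 0.01, a stricter threshold, was met by 2994 genes that fell and 2727 that rose in Hep-G2. In BE(2)-C 1475 fell and 1139 rose at that threshold, and 4071 differed between the lines. Leaving out 1 replicate each gave 1495 to 2129 risen genes in BE(2)-C, against 2489 with all libraries. The count was 1612, 1523 and 1495 without siI1 replicate 1, 2 and 3, with fewer samples in the fit.

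Scaling to equal sums of FPKM shifted the median of all genes in Hep-G2 by -0.15, and 64.5% of calls there were then falls, against 51.2%. Median centring went the other way, with 42.4% falls (3693, against 5015 rises), and 45.4% in BE(2)-C (2390, against 2872 rises), where 52.6% were falls before. With equal sums JUN was 0.79 in place of 0.95, and 8 bZIP partners and 6 turnover genes fell, in place of 5 and 3, while 2 upstream genes and 1 AP-1 target rose, in place of 5 and 3. Voom on the recovered reads gave 4822 falls and 4576 rises for Hep-G2, and 3329 and 3201 for BE(2)-C, of which 8377 and 4958 were shared with the fit on FPKM. Within each line the counts of members were the same with it, while in BE(2)-C 2 AP-1 targets and 2 turnover genes fell, in place of 1 each, and 1 AP-1 target rose, in place of 0. Voom was not run for the difference between the lines. With a mean of at least 50 reads, chosen after seeing the data, 4231 genes fell and 3553 rose in Hep-G2, against 3025 and 2556 for the other line. The members called within each line were as many as before. Between the lines IER3 was no longer tested and IER2 passed (limma, adjusted p = 0.043), so 5 differed but not the same 5. BE(2)-C had 3 fallen bZIP partners in place of 5, 2 fallen turnover genes in place of 1, 0 fallen AP-1 targets in place of 1 and 1 risen AP-1 target in place of 0.

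Same-numbered libraries did not deviate together, with correlations of -0.010 to 0.063, so they were not treated as pairs. The replicate block gave 4502 falls and 4318 rises for Hep-G2, and 2531 and 2141 for BE(2)-C. IER2 and MAP3K1 then differed between the lines (limma, adjusted p = 0.016 and 0.034). TIMP1 then fell in BE(2)-C with -0.16 (limma, adjusted p = 0.042). In that line 2 AP-1 targets fell, in place of 1, and 1 upstream gene rose, in place of 2. Depth limits FOS and FOSB in Hep-G2, and FOSB, FOSL1 and IER3 in BE(2)-C, which had at most 31 reads in any library. The siI1 libraries of FOS in Hep-G2 also lay apart, from 0.023 to 0.424 FPKM.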
